A study of Homo sapiens with 12 samples.

Results

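The 9 genes described here encode the core proteins that dissolve fibrin and the plasma inhibitors that hold the clotting and fibrinolytic proteases in check. They were taken by symbol from a table of 16389 genes, and all 9 (PLG, PLAT, PLAU, PLAUR, SERPINF2, A2M, SERPINC1, SERPIND1 and SERPINA5) were found. RNA-seq had been performed on HepG2, an established human liver cancer cell line, at passage 9, in 4 groups of 3 libraries. LG cells were kept for 48 h in medium with 5.5 mM glucose and HG cells for 48 h in medium with 20 mM glucose. LGV and HGV cells were kept in the same low and high glucose media and then given 1 mM valproic acid (VPA), a histone deacetylase inhibitor, for 12 h. The groups share the cell line, the basal DMEM medium with serum and the antibiotics. A single cancer line in culture limits the model, since the other cells of the liver are missing. The labels do not say whether the 3 libraries of a group came from separate cultures, so p-values measure the spread between these libraries, which may be technical.

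Fibrin clots are dissolved by plasmin, a serine protease that circulates as its precursor plasminogen (PLG), made mainly by hepatocytes. Plasminogen is cut to plasmin by tissue-type activator (PLAT), which works on fibrin, and by urokinase (PLAU), which is held at the cell surface by its receptor (PLAUR). Alpha-2-antiplasmin (SERPINF2) is the fast plasma inhibitor of plasmin, and alpha-2-macroglobulin (A2M) traps many proteases in a cage. Antithrombin (SERPINC1) and heparin cofactor II (SERPIND1) are serpins that block thrombin, antithrombin also acts on factor Xa, and both are sped up by glycosaminoglycans. Protein C inhibitor (SERPINA5) is a serpin that blocks activated protein C and urokinase. The liver is the main source of plasminogen and of these plasma inhibitors, whereas PLAT is best known as a product of endothelium.

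Promoters from a RefSeq table are given for 5 of the 9 genes, and they are shown because the transcripts of these genes moved in different directions. Promoters of the other genes are not given, and no conclusion is drawn about them. Each line holds the 250 bases before a RefSeq start, read 5′ to 3′ on the gene's strand. The table's build is GRCh38.p14, and the GRCh37 coordinates were found by an exact match to that genome. Where a gene had several starts, the one that coincided with a GENCODE start on GRCh37 is given. Capitals mark matches to the motifs searched.
PLG, chr6:161123026-161123275, plus strand: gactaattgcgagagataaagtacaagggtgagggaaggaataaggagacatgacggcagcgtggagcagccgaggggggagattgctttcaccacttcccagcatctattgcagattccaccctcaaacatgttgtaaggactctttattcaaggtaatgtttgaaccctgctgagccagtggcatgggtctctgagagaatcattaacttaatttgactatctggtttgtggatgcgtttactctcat
SERPIND1, chr22:21128151-21128400, plus strand: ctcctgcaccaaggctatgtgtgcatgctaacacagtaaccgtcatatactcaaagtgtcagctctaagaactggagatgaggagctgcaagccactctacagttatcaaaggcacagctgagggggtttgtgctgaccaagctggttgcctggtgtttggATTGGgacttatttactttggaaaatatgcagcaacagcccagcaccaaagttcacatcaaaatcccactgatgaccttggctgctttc
SERPINA5, chr14:95047513-95047762, plus strand: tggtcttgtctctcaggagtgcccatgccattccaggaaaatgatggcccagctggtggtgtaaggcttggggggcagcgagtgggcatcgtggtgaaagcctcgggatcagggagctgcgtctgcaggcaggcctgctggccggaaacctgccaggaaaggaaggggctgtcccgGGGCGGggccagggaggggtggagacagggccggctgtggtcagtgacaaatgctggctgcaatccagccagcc
PLAUR, chr19:44174322-44174571, minus strand: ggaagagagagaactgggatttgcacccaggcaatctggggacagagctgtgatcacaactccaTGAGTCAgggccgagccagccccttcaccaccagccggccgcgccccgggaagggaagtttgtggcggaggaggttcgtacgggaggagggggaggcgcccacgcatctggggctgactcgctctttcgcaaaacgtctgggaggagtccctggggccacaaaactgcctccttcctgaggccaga
PLAU, chr10:75670640-75670889, plus strand: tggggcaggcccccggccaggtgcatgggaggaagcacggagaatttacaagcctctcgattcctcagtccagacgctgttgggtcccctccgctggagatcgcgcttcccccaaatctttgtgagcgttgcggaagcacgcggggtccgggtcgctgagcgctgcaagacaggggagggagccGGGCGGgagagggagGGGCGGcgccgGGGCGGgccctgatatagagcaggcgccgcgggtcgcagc

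The motifs were searched on both strands, and no matches overlapped. The GC box GGGCGG was found 3 times before PLAU and once before SERPINA5, and in 42.6% of all 35116 promoter windows of this length. The AP-1 motif TGANTCA was found before PLAUR and in 6.57% of windows. The CCAAT box CCAAT was found before SERPIND1, on the other strand, and in 32% of windows. No match in these 5 windows was found to the HNF1 motif (0.0057% of windows), the HNF4 motif CAAAGTCCA (0.325%), the CRE TGACGTCA (1.65%) or the TATA box TATAAA (10.7%). Only full matches were counted, and the HNF1 motif had one in just 2 of the 35116 windows. For motifs this rare, 5 windows without a match cannot show whether HNF1 or HNF4 sites that differ in some bases are present. The windows also differed in CpG content. SERPIND1 held 1 CpG, PLG 5, SERPINA5 8, PLAUR 13 and PLAU 24, with a median of 11 over all windows (quartiles 3 and 23).

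The libraries held from 29798442 to 45572694 reads assigned to genes, and TMM factors ran from 0.879 to 1.095. The glucose-induced transcript TXNIP checked the media: it lay between 6.21 and 10.7 CPM (counts scaled to library size with TMM factors) in the low glucose libraries and between 107 and 389 CPM in the high glucose libraries, HG replicate 1 being the lowest. All 14 hepatocyte markers could be analysed, led by ALB with a mean of 25294 CPM in LG. Of the markers of other liver cells, 2 of 6 endothelial genes could be analysed and summed to between 2.21 and 4.85 CPM per library. For stellate cells and fibroblasts 2 of 6 could be analysed, of which COL1A1 was at most 2.64 CPM and PDGFRB at most 57.9 CPM. For macrophages 3 of 6 could be analysed, of which CD14 was at most 4.73 CPM and CSF1R at most 0.912 CPM, while LYZ reached 1545 CPM. A change in RNA per cell and a change in the share of cells that make it cannot be told apart in these bulk libraries.

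The members fell into an abundant and a scarce set. Levels were compared between genes as CPM per kilobase of annotated exon, and the order was A2M, SERPINF2, then SERPINA5, SERPIND1 and SERPINC1 in varying order, PLG, and last PLAU, PLAUR and PLAT. In LG, A2M had 1712 ± 83.9 CPM per kilobase (SD, n = 3), which placed it 25th of 15975 genes. SERPINF2 had 312 ± 28.5 CPM per kilobase (SD, n = 3). The other inhibitors ran from 226 ± 15.6 (SERPINA5) over 208 ± 8.27 (SERPIND1) to 156 ± 17 CPM per kilobase (SERPINC1; SD, n = 3), and SERPINA5 and SERPIND1 did not differ beyond their spread, since the latter was higher in replicate 3. All 5 inhibitors stood within the top 2.42% of genes in every group. PLG had 2.85 ± 0.305 CPM per kilobase (SD, n = 3), in the middle of the range of all genes. PLAU had 0.677, PLAUR 0.222 and PLAT 0.087 CPM per kilobase in LG, and the lowest count of any of them was 15 reads, for PLAT in LG replicate 1, so that their values carry more counting error. PLAU and PLAUR changed places with VPA in 3 of the 6 treated libraries. Reads on A2M alone made up between 0.679% and 1.1% of all counted reads per library, and those on the 9 genes together between 0.824% and 1.33%.

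**Figure D1:**
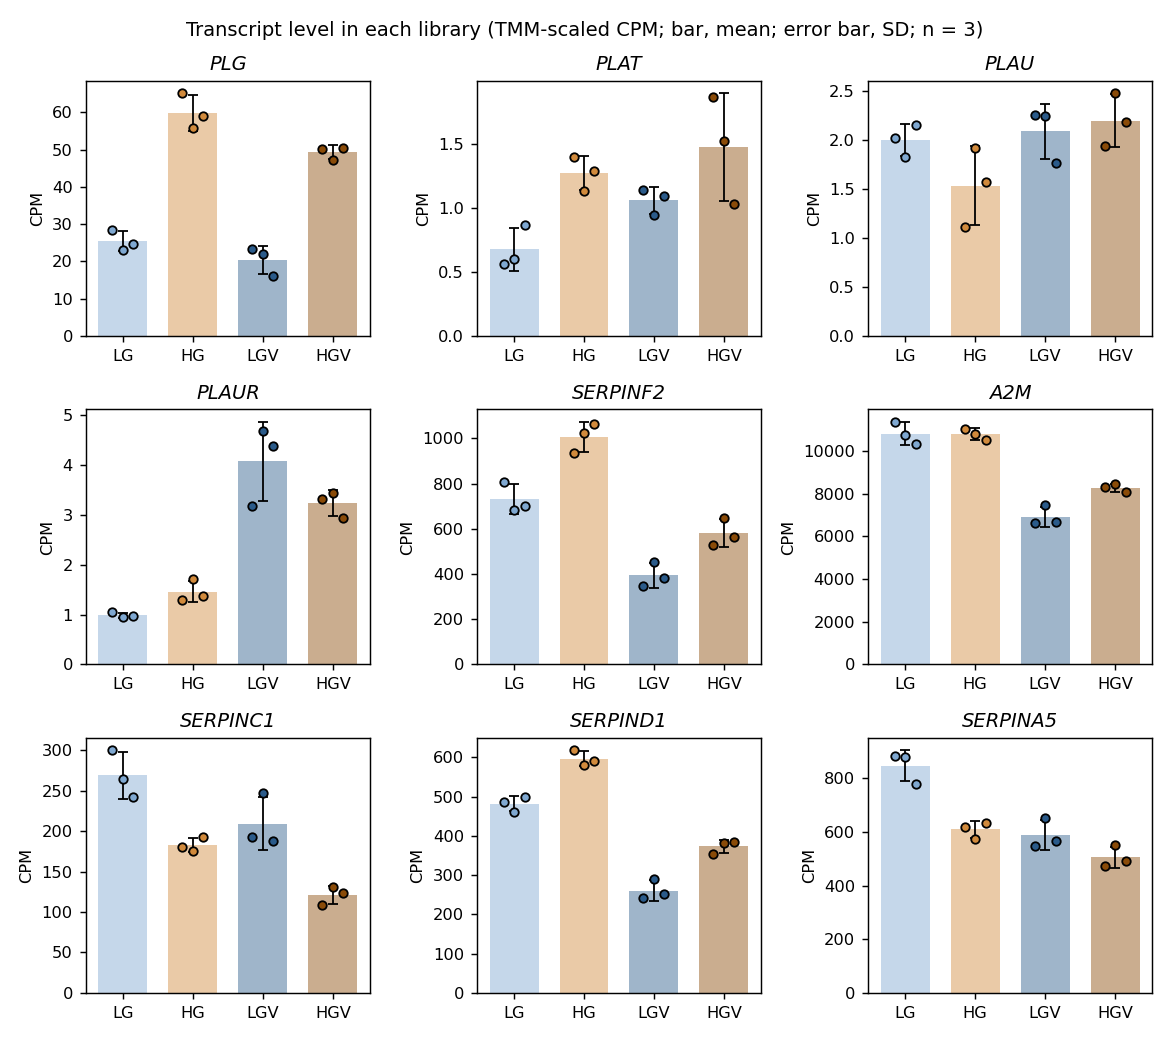
TMM-scaled CPM (vertical axis, from 0, a separate scale for each gene) of the 9 genes in the groups LG, HG, LGV and HGV; points are libraries, bars means of 3 libraries and error bars SD. PLG is higher in both high glucose groups, PLAUR in both VPA groups, and SERPINF2 and SERPIND1 are higher in HG than in LG and lower with VPA at either glucose level.

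The first comparison asked which of these genes responded to high glucose. Plasminogen rose most, 2.39-fold over LG, and the thrombin inhibitors antithrombin and heparin cofactor II moved in opposite directions. With edgeR's quasi-likelihood test and Benjamini-Hochberg adjustment over 15452 genes (FDR of 0.05 or less), 6 of the 9 genes passed, against 24.7% of all genes tested (12% higher and 12.7% lower). That share rests on 3813 called genes, a number that fell to 1933 without LG replicate 1 and to 2076 without HG replicate 3. PLG, PLAT, SERPINF2 and SERPIND1 rose and SERPINC1 and SERPINA5 fell. The median log2 fold change of the 9 genes was 0.33, and that of all tested genes 0.01. The libraries of HG and LG did not overlap for 7 of the 9 genes, a feature of 41.2% of all tested genes.

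PLG (ENSG00000122194), on chromosome 6 of GRCh37 from 161123226 to 161175129, had 28.5, 23.2 and 24.7 CPM in the LG libraries and 65.1, 55.7 and 58.9 CPM in the HG libraries. Every HG library was far above every LG library. The log2 fold change was 1.26 (2.39-fold, with a standard error, SE, of 0.13, FDR 3.17e-06), the largest of the 9 genes, and the call held under all 15 alternatives. Its activators were scarce. PLAT (ENSG00000104368), on chromosome 8 from 42032236 to 42065227, had 0.561, 0.599 and 0.868 CPM in LG and 1.4, 1.14 and 1.29 CPM in HG. All HG libraries lay above all LG libraries, with counts from 15 to 46 reads. Its log2 fold change was 0.91 (SE 0.30, FDR 0.0308), which DESeq2's Wald test did not call and which was lost when any of 5 of the 6 libraries was left out.

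PLAU (ENSG00000122861), on chromosome 10 from 75668935 to 75677254, had between 1.82 and 2.14 CPM in LG and between 1.11 and 1.91 CPM in HG, and the groups overlapped. Its log2 fold change was -0.35 (95% interval -0.90 to 0.20, FDR 0.346). The exons of PLAU share 915 bases with those of C10orf55 on the other strand, and the sources do not state if reads were assigned by strand. PLAUR (ENSG00000011422), on chromosome 19 from 44150247 to 44174699, had 1.05, 0.948 and 0.97 CPM in LG and 1.3, 1.71 and 1.37 CPM in HG. Although the groups did not overlap, the log2 fold change of 0.59 (95% interval 0.02 to 1.16) had an FDR of 0.12 and did not pass.

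Among the inhibitors of plasmin, SERPINF2 (ENSG00000167711), on chromosome 17 from 1646130 to 1658559, had 807, 682 and 703 CPM in LG and 935, 1024 and 1065 CPM in HG. The groups did not overlap, and the log2 fold change was 0.49 (1.4-fold, SE 0.12, FDR 0.00716). A2M (ENSG00000175899), on chromosome 12 from 9220260 to 9268825, had between 10330 and 11381 CPM in LG and between 10513 and 11052 CPM in HG. These ranges overlapped, and the log2 fold change of 0.02 had a 95% interval from -0.23 to 0.27. The exons of A2M share 561 bases with those of A2M-AS1 on the other strand, a gene with at most 43 reads in any library.

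The antithrombin gene SERPINC1 (ENSG00000117601), on chromosome 1 from 173872938 to 173886465, had 300, 265 and 243 CPM in LG and 181, 176 and 193 CPM in HG. Every HG library was lower than every LG library, and the log2 fold change was -0.53 (0.691-fold, SE 0.12, FDR 0.00373). SERPIND1 (ENSG00000099937), on chromosome 22 from 21128401 to 21142008, had 486, 461 and 498 CPM in LG and 619, 581 and 592 CPM in HG. The HG libraries were all higher, but the log2 fold change of 0.33 (SE 0.11, FDR 0.04) was close to the threshold. It was lost in 5 of the 6 fits without 1 library, where the FDR reached 0.122. SERPINA5 (ENSG00000188488), on chromosome 14 from 95027779 to 95059455, had 882, 880 and 780 CPM in LG and 621, 573 and 635 CPM in HG, again without overlap. Its log2 fold change was -0.45 (0.731-fold, SE 0.12, FDR 0.00892). Its exons share 79 bases with ENSG00000273259 and 53 bases with SERPINA4, both on the same strand. The call was lost without HG replicate 2 or without LG replicate 1, and either of these omissions left 3 called genes, PLG, SERPINF2 and SERPINC1. Calls over all genes also dropped then, from 3813 to 2675 and 1933.

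High and low glucose were also compared in cells given VPA, in libraries that the first comparison did not use. PLG, SERPINF2 and SERPIND1 were again higher and SERPINC1 lower with high glucose. These were the 4 genes that passed of 9, against 40.7% of the 16208 genes tested (21.2% higher and 19.5% lower), a share near that of all genes. PLG had 23.2, 21.9 and 16.1 CPM in LGV and 50.2, 47.2 and 50.5 CPM in HGV. The groups were far apart, with a log2 fold change of 1.25 (2.39-fold, SE 0.14, FDR 3.61e-06). SERPINC1 had 192, 247 and 188 CPM in LGV and 109, 131 and 124 CPM in HGV, without overlap and with a log2 fold change of -0.80 (SE 0.13, FDR 0.000159). SERPINF2 had 346, 455 and 382 CPM in LGV and 530, 649 and 563 CPM in HGV, with a log2 fold change of 0.54 (SE 0.14, FDR 0.00513). SERPIND1 had 241, 290 and 251 CPM in LGV and 353, 381 and 385 CPM in HGV, with a log2 fold change of 0.50 (SE 0.13, FDR 0.00432). For both of these inhibitors every HGV library was higher than every LGV library. The 4 calls held under every alternative tried. Of the hepatocyte markers, 5 of 14 were higher and 1 lower here, against 21.2% and 19.5% of all genes tested. Together these marker calls were near the share of all genes. The markers had a median log2 fold change of 0.29. Their sums ran from 41896 to 42889 CPM in LGV and from 49152 to 63615 CPM in HGV. Their part in the differences of the 4 genes was not tested.

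The other 5 genes did not pass with VPA present. SERPINA5 had a log2 fold change of -0.24 (95% interval -0.52 to 0.04, FDR 0.158), PLAT 0.46 (-0.16 to 1.07, FDR 0.224) and PLAUR -0.35 (-0.79 to 0.09, FDR 0.188). PLAUR passed only without LGV replicate 1 (-0.50, FDR 0.0477). A2M was higher in every HGV than in every LGV library, with a log2 fold change of 0.24 (-0.09 to 0.57, FDR 0.226), and passed only when scaled by library size alone (FDR 0.0252). The log2 fold change of PLAU was 0.06 (-0.43 to 0.55, FDR 0.855).

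**Figure D2:**
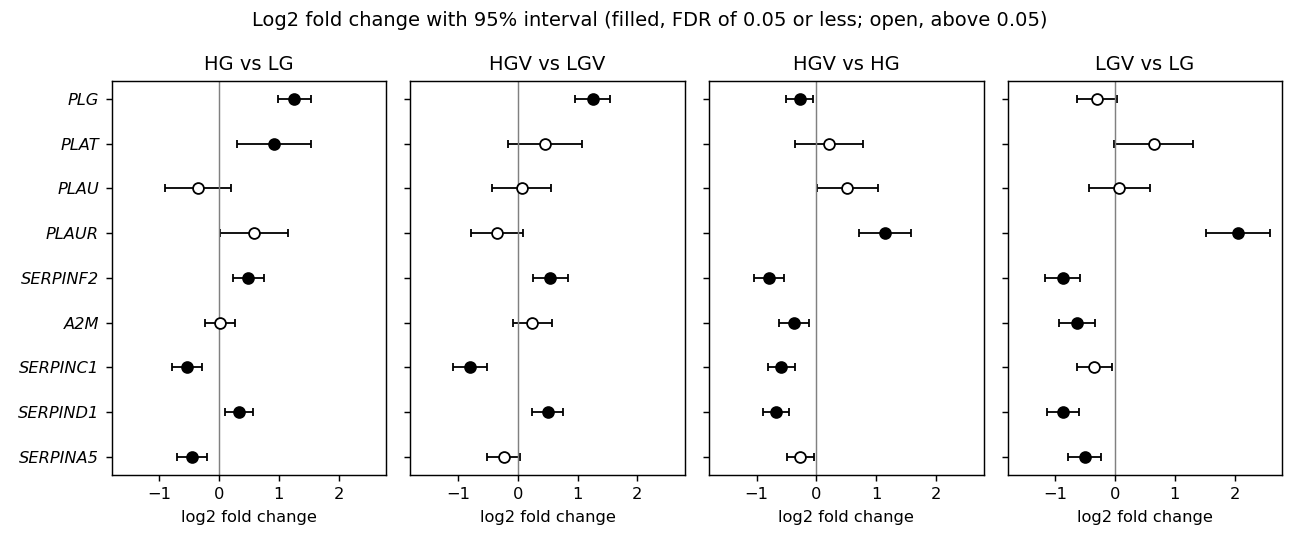
Log2 fold change (horizontal axis) of each gene in 4 comparisons of 3 against 3 libraries, with 95% intervals from edgeR; filled points have an FDR of 0.05 or less. PLG lies at 1.26 and 1.25 in the glucose comparisons, and PLAUR at 1.15 and 2.06 in the VPA comparisons, in which SERPINF2, SERPIND1 and A2M lie to the left of 0.

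The next comparisons asked how VPA changed these genes in each medium, and they share the HG and LG libraries with the first comparison. The urokinase receptor rose and the plasma inhibitors fell, at both glucose levels for SERPINF2, SERPIND1 and A2M. In high glucose, 6 of the 9 genes passed, 1 higher and 5 lower, against 46.1% of 16188 genes tested (25.8% higher and 20.2% lower). In low glucose, 5 of the 9 passed, 1 higher and 4 lower, against 41.6% of 15944 genes (21.7% higher and 19.9% lower). When scaled by library size alone, 2 were higher and 3 lower in high glucose. If treated cells were harvested 12 h later than untreated cells, which is not stated, VPA and culture time cannot be told apart.

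PLAUR had 3.31, 3.45 and 2.94 CPM in HGV, against 1.3 to 1.71 CPM in HG. The log2 fold change was 1.15 (2.21-fold, SE 0.20, FDR 0.000489). In LGV it had 3.18, 4.68 and 4.38 CPM, against 0.948 to 1.05 CPM in LG, with a log2 fold change of 2.06 (4.16-fold, SE 0.25, FDR 1.40e-05). Every treated library lay above every untreated library, on counts of 28 to 164 reads, and both calls held under every alternative. Its ligand PLAU had between 1.93 and 2.47 CPM in HGV and between 1.76 and 2.25 CPM in LGV. The HGV libraries of PLAU lay just above those of HG, with a log2 fold change of 0.52 (95% interval 0.0019 to 1.04, FDR 0.0931), and in low glucose it was 0.07 (-0.44 to 0.58, FDR 0.836). PLAT had 1.87, 1.52 and 1.03 CPM in HGV and 1.14, 0.942 and 1.09 CPM in LGV. In HGV it overlapped HG, with a log2 fold change of 0.21 (95% interval -0.36 to 0.78, FDR 0.543). In LGV all libraries were above those of LG, with 0.64 (-0.02 to 1.31, FDR 0.112), and neither passed.

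The plasmin inhibitor SERPINF2 fell by 0.80 on the log2 scale in high glucose (0.576-fold, SE 0.11, FDR 0.000107) and by 0.88 in low glucose (0.544-fold, SE 0.14, FDR 0.000121). Its treated libraries, listed above, all lay below the untreated libraries of the same medium. SERPIND1 moved alike, with log2 fold changes of -0.68 (SE 0.10, FDR 0.000118) and -0.87 (SE 0.12, FDR 4.99e-05). A2M had 8325, 8456 and 8069 CPM in HGV and 6628, 7451 and 6655 CPM in LGV. It was lower than without VPA in every library, with log2 fold changes of -0.38 (SE 0.12, FDR 0.0169) in high and -0.63 (SE 0.14, FDR 0.00235) in low glucose. The call in high glucose was lost when scaled by library size alone (FDR 0.0572), without HG replicate 2 (FDR 0.0597) and without HG replicate 3 (FDR 0.0551).

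For the remaining genes the call depended on the medium or the setting. SERPINC1 fell in high glucose, with a log2 fold change of -0.59 (SE 0.10, FDR 0.000492). In low glucose it had -0.35 (95% interval -0.64 to -0.06, FDR 0.0518), and LGV replicate 2 lay within the range of LG. It passed in 6 of the 15 alternatives, DESeq2 among them (FDR 0.0413). SERPINA5 had 474, 550 and 493 CPM in HGV and 546, 653 and 568 CPM in LGV. It fell in low glucose, with a log2 fold change of -0.51 (SE 0.13, FDR 0.0046), and in high glucose had -0.27 (95% interval -0.50 to -0.04, FDR 0.052), although all HGV libraries were below all HG libraries. This passed in 4 of the 15 alternatives, with an FDR of 0.0193 in DESeq2. PLG in high glucose had a log2 fold change of -0.28 (0.822-fold, SE 0.10, FDR 0.0409) and passed, but 8 of the 15 alternatives ended this call. In low glucose it had -0.31 (95% interval -0.64 to 0.03, FDR 0.134), and the groups overlapped.

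Hepatocyte markers were counted in the same comparisons. Of 14 markers, 10 were lower and 0 higher with VPA in low glucose, against 19.9% and 21.7% of all genes tested. Their median log2 fold change was -0.60. Their summed level ran from 55621 to 62528 CPM in LG and from 41896 to 42889 CPM in LGV. In high glucose 6 were lower and 1 higher, against 20.2% and 25.8% of all genes. Together these calls in high glucose were near the share of all genes. The median was -0.23, and the sums overlapped, from 56377 to 64555 CPM in HG and from 49152 to 63615 CPM in HGV. The part of these markers in the falls of the inhibitors was not tested.

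A glucose by VPA interaction term, fitted to all 12 libraries, tested whether the response to VPA differed between the media. None of the 9 genes passed with edgeR's quasi-likelihood test, its likelihood ratio test or DESeq2's Wald test, against 0.0427% of 16389 genes with the first. At an unadjusted p of 0.05 or less there was 1 gene, PLAUR, whose rise was smaller in high glucose by 0.90 on the log2 scale (95% interval of the difference -1.56 to -0.24, FDR 0.264). The share of all genes at this unadjusted p was 11.3%. The intervals for the other genes ran from -0.36 to 0.43 for PLG and from -1.26 to 0.41 for PLAT, the widest.

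Ratios of reads within a library do not depend on the scaling between libraries, and 3 of them were chosen after the counts had been seen, as a description without a test. The plasminogen to antiplasmin ratio was 35.3, 33.9 and 35.2 PLG reads per 1000 SERPINF2 reads in LG and 69.7, 54.4 and 55.3 in HG. It was 67.1, 48.2 and 42.1 in LGV and 94.7, 72.7 and 89.6 in HGV. The ratio was higher with high glucose within each treatment and with VPA within each medium, without overlap. SERPINC1 reads per 1000 SERPIND1 reads numbered 618, 574 and 487 in LG and 292, 303 and 326 in HG. They numbered 799, 853 and 749 in LGV and 310, 343 and 322 in HGV. Thus the antithrombin to heparin cofactor II ratio was lower in every high glucose library than in any low glucose library. PLAUR reads per 1000 PLAU reads numbered between 452 and 520 in LG, between 875 and 1171 in HG, between 1413 and 2485 in LGV and between 1351 and 1714 in HGV.

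**Figure D3:**
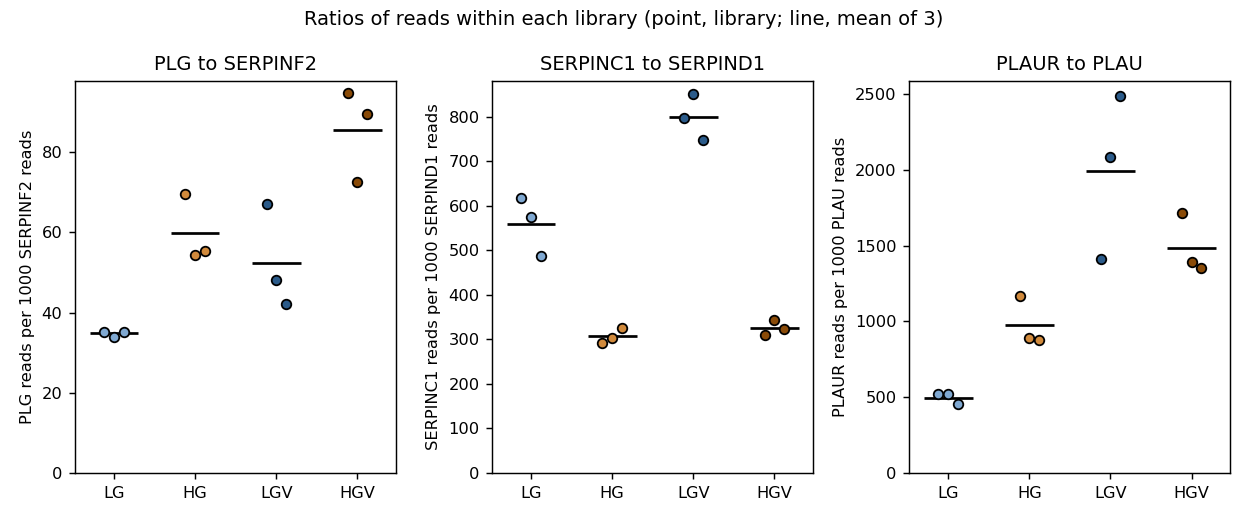
Reads of a first gene per 1000 reads of a second gene in the same library (vertical axes, from 0) in LG, HG, LGV and HGV; points are libraries and lines means of 3. PLG to SERPINF2 is lowest in LG (33.9 to 35.3) and highest in HGV (72.7 to 94.7), and SERPINC1 to SERPIND1 is lower in both high glucose groups.

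Other genes of fibrinolysis and anticoagulation were taken from lists made from gene symbols. A gene said to lead a list had the largest change among its called genes with a mean log2 CPM of at least 1, so that scarcer genes could exceed it. Of 20 further fibrinolysis genes tested, 5 were higher and 2 lower in HG than in LG, against 12% and 12.7% of all genes. Their median log2 fold change was -0.14. F12, the contact factor, led the rises and rose by 0.76 on the log2 scale (FDR 0.00858), though its exons overlap GRK6 on the other strand, and ANXA2, the annexin that binds plasminogen at the cell surface, by 0.41 (FDR 0.0474). S100A10, the partner of ANXA2 in that receptor, went the other way with -0.59 (FDR 0.00837), and SERPINB8, an intracellular serpin, had -1.19 (FDR 0.000969). With VPA 6 were higher and 5 lower in high glucose, against 25.8% and 20.2% of all genes. In low glucose 5 were higher and 6 lower, against 21.7% and 19.9%. MMP2, a matrix metalloprotease, led the rises in both media. It rose by 3.17 and 2.87 (FDR 1.17e-06 and 9.42e-08), from 2.12 ± 0.813 to 19.2 ± 4.48 CPM and from 3.67 ± 1.1 to 26.2 ± 2.66 CPM (SD, n = 3). The pair ANXA2 and S100A10 again split: ANXA2 had -0.97 and -1.12 (FDR 1.93e-05 and 2.67e-05), and S100A10 1.06 and 0.86 (FDR 0.00013 and 8.14e-05).

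CPB2, the carboxypeptidase known as TAFI that protects fibrin from lysis, fell with VPA, by 0.42 in high (FDR 0.0201) and 0.82 in low glucose (FDR 0.00449), and was higher in HGV than in LGV by 0.69 (FDR 0.000595). Its call in high glucose was lost in 5 of the 15 alternatives, with an FDR of up to 0.0926.

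Of 12 other anticoagulant genes tested, 3 were higher and 0 lower in HG, against 12% and 12.7% of all genes tested. Together these calls were near the share of all genes (24.7%). They were PROZ with 0.58, PROC (protein C) with 0.45 and PROS1 (protein S, its cofactor) with 0.43 (FDR 0.0441, 0.0157 and 0.0473). The calls of PROZ and PROS1 were each lost in 4 of the 6 fits without 1 library, as was that of ANXA2, and the call of PROC was lost without HG replicate 2 (FDR 0.0755) or HG replicate 3 (FDR 0.0653). In HGV against LGV 4 were higher and 0 lower, against 21.2% and 19.5% of all genes, led by PROC with 0.55 (FDR 0.00117). Together these calls did not exceed the share of all genes (40.7%). With VPA 6 were higher and 5 lower in high glucose, against 25.8% and 20.2% of all genes. In low glucose 5 were higher and 4 lower, against 21.7% and 19.9%. Besides PROCR, those higher with VPA in high glucose were GGCX, the carboxylase of vitamin K-dependent proteins, and the heparan sulfate genes EXT1, EXT2, SDC1 and SDC4. These genes were named after their values were seen. HS3ST3B1, another heparan sulfate gene of the list, went the other way. It had log2 fold changes of -0.66 in high and -0.54 in low glucose (FDR 0.00135 and 0.00218). The plasma anticoagulants PROC, PROS1, PROZ and SERPINA10 were lower with VPA in high glucose. The call of PROS1 (-0.35, FDR 0.0315) was lost in 7 of 15 alternatives. SERPINA10, the inhibitor that acts with protein Z, had log2 fold changes of -2.21 and -2.44 (FDR 1.46e-07 and 1.80e-06), and PROC was at 0.499-fold and 0.453-fold (FDR 1.14e-05 and 4.20e-06). PROCR, the endothelial receptor for protein C, rose by 1.80 and 2.30 (FDR 5.59e-06 and 9.78e-07), from 1.72 ± 0.206 to 6 ± 0.569 CPM and from 1.31 ± 0.0569 to 6.4 ± 0.217 CPM (SD, n = 3). TFPI, the inhibitor of the tissue factor pathway, did not pass in any comparison, with log2 fold changes from 0.06 to 0.10.

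The lists of clotting factors with fibrinogen and of other plasma protease inhibitors gave the following counts. Of 11 clotting factor and fibrinogen genes, 5 were higher and 0 lower with high glucose in untreated cells, and as many in VPA-treated cells. Of all genes tested, 12% were higher and 12.7% lower in untreated cells, and 21.2% and 19.5% in VPA-treated cells. In VPA-treated cells the calls together were near the share of all genes (40.7%). The fibrinogen chain FGA led both with 0.94 and 1.23 (FDR 0.000132 and 2.48e-05). With VPA 6 were lower and 1 higher in high glucose, against 20.2% and 25.8% of all genes. In low glucose 6 were lower and 0 higher, against 19.9% and 21.7%. F7 led the falls with -1.73 and -1.65 (FDR 9.87e-07 and 1.33e-05). F3 (tissue factor) was the gene called higher with VPA in high glucose, with 0.69 (FDR 0.028). The F3 libraries overlapped, and the call was lost in 4 of the 6 fits without 1 library (FDR up to 0.112). The median log2 fold change of this list with VPA was -0.50 in high and -0.60 in low glucose, and that of all tested genes 0.02 and -0.01. Prothrombin (F2), the precursor of the protease that antithrombin blocks, had 0.01 in HG against LG (FDR 0.966), and fell by 0.47 and 0.60 with VPA (FDR 0.00195 and 0.00175). Of 15 other plasma protease inhibitor genes, 9 were higher and 1 lower in HG, against 12% and 12.7% of all genes. SERPING1 led the rises with 2.15, and the fall was that of AMBP with -0.41 (FDR 1.26e-08 and 0.0217). The AMBP call was lost in 6 of the 15 alternatives, with an FDR of up to 0.138. In HGV against LGV 9 of 16 were higher and 2 lower, against 21.2% and 19.5% of all genes. SERPINA3 led the rises with 2.75 (FDR 1.04e-05) and SPINT1 the falls with -0.67 (FDR 0.00176). With VPA 8 of 16 were lower and 4 higher in high glucose, against 20.2% and 25.8% of all genes. In low glucose 9 were lower and 3 higher, against 19.9% and 21.7%. SERPINA3 was at -1.65 and -2.51 (FDR 0.00115 and 5.10e-05) and SPINT1 at 1.48 and 1.67 (FDR 8.97e-06 and 9.38e-06).

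**Figure D4:**
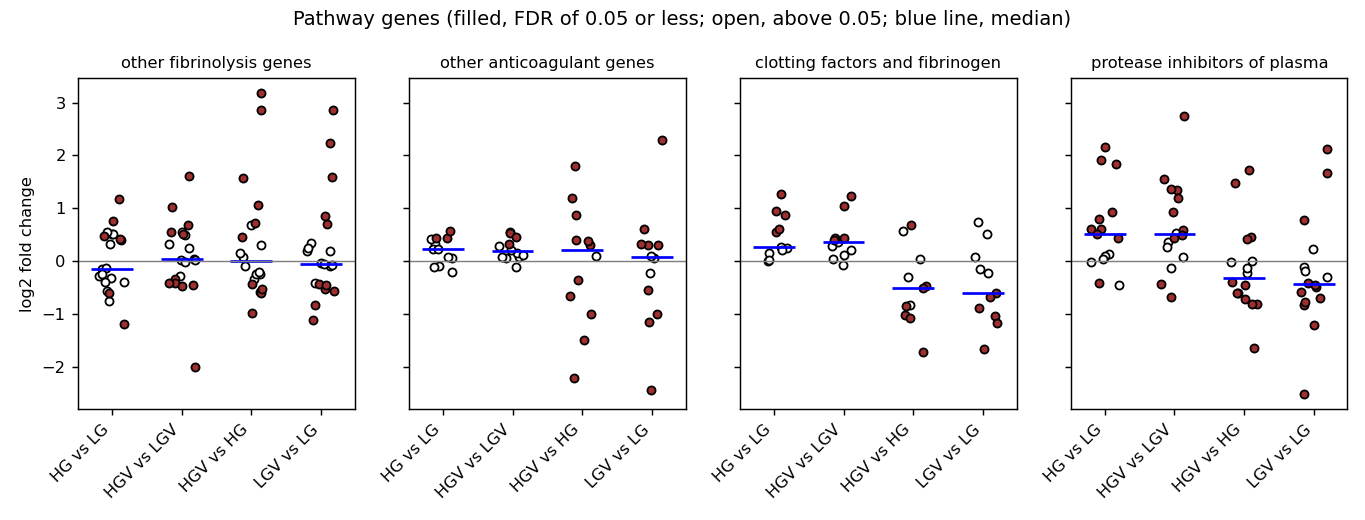
Log2 fold change (vertical axis) of the genes of 4 lists in the glucose comparisons (HG vs LG, HGV vs LGV) and the VPA comparisons (HGV vs HG, LGV vs LG); each point is a gene, filled if its FDR was at most 0.05, and blue lines are list medians. Clotting factor genes lie mostly above 0 for glucose and below 0 for VPA, whereas the other fibrinolysis genes lie on both sides.

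The genes whose log2 CPM followed each member most closely over the 12 libraries were sought among 13467 genes with a mean of at least 1 CPM. The libraries form 4 groups, so these values of Pearson's r describe shared group differences and were not tested. SERPINF2 was followed by HPN (0.993) and SERPINF1 (0.990), SERPIND1 by AFMID (0.987) and ITIH3 (0.984), and A2M by PCSK6 (0.984) and SMG5 (0.978). For PLAUR these were MAST1 (0.988) and FAM171A2 (0.984), and for SERPINA5 SRP68 (0.964) and VCP (0.962). PLG was followed by RP1-39G22.7 (0.959) and, most closely, by KNG1 (0.962), the kininogen gene, which rose in HG by 1.84 on the log2 scale (FDR 1.37e-06). The values for the scarce PLAT and PLAU were lower, unlike those for PLAUR, with ABHD17C (0.935) and NEU3 (0.934) for PLAT and LCN2 (0.893) and RGS10 (0.879) for PLAU. SERPINC1 was followed by RP11-223I10.1 (0.977) and ALYREF (0.974).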

How the data were processed

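RNA was measured by sequencing in 12 HepG2 libraries, 3 in each of LG, HG, LGV and HGV. The authors deposited counts of reads per gene. Per the labels and the study's methods, reads came from a directional kit, were demultiplexed with bcl2fastq 2.17.1.14, trimmed, aligned to GRCh37 with STAR and counted with featureCounts at a mapping quality of at least 10, and genes averaging under 10 reads were left out. The strand setting is not given in the sources used here. The depth of each library limits the scarce genes, since 3 reads correspond to between 0.0658 and 0.101 CPM.

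Tests on the counts used edgeR 4.0.16 (R 4.3.3; TMM factors, mean count of at least 10 in the libraries compared, quasi-likelihood F test, Benjamini-Hochberg adjustment, FDR of 0.05 or less). Each comparison was fitted on its own 6 libraries and the interaction on all 12. Intervals are 95% intervals from the fit. The alternatives were other scaling factors, a likelihood ratio test, DESeq2 1.42.0, other filters, a replicate block, 1 fit of all libraries and leaving out each library. In counts simulated for HG against LG, 193 of 200 genes changed 2-fold were recovered, with 10 false calls among 203 (16272 genes). For the interaction 128 of 200 were recovered, with 11 false calls among 139 (16290 genes). The simulation gave all genes the same dispersion and left all but these 200 genes unchanged. The 200 were drawn from genes with more reads than the filter asks for, and no difference in library composition was added. These rates therefore check the code and need not hold for the real libraries or the scarce genes. Exon lengths and positions came from a GENCODE annotation on GRCh37, matched by identifier for 97.47% of genes. The members and lists were chosen with earlier results of these data known. Besides the members, the text names the genes of each list that rose and fell most among those called, and a few fixed by name, of which 1 is not reported here. TXNIP, A2M-AS1, KNG1 and the other closest genes were named for the checks they belong to.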

Additional observations from a re-analysis of the deposited data

How the results depend on the processing

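Over the alternatives, 670 of 719 values of the 9 genes in 5 comparisons kept their direction and side of the threshold, and for 31 of 45 results all did. The number of the 9 genes called in HG against LG ranged from 3 to 6 when 1 library was left out, with 3 without HG replicate 2 or LG replicate 1, while calls over all genes ranged from 1933 of 15523 (without LG replicate 1) to 5338 of 15407 (without LG replicate 3), against 3813 of 15452 with all libraries. Reversals were limited to values near 0, and all but one came from leaving out 1 library. These ranges were, in HG against LG, -0.0089 to 0.0772 for A2M, -0.0196 to 0.0871 for F2 and -0.0674 to 0.173 for TFPI. TFPI ran from -0.0495 to 0.232 in HGV against HG, from -0.0116 to 0.135 in LGV against LG and from -0.0722 to 0.165 in HGV against LGV, where PLAU ran from -0.0509 to 0.146. The interaction ran from -0.111 to 0.139 for PLG (-0.0172 with library size only) and from -0.0351 to 0.178 for SERPINF2. The cause was not tested. Scaling by library size alone moved the median of all genes to 0.11 and 0.10 in the glucose comparisons (without and with VPA) and to 0.15 and 0.16 in the VPA comparisons (in high and in low glucose), and the share of calls that were higher went from 48.6% and 52.2% to 62.6% and 62% in the former and from 56.1% and 52.1% to 68.1% and 69.7% in the latter. For all genes, the interaction gave 7 calls with the quasi-likelihood test, 202 with the likelihood ratio test, 162 with DESeq2 and 1 with library size only. Without 1 library it gave 1 call in 8 of 12 fits, 2 without HG replicate 2, 21 without LGV replicate 1, 67 without LG replicate 3 and 217 without LG replicate 2. The replicate numbers were not treated as pairs in the main tests. Deviations from the group mean correlated from -0.184 to 0.299 between libraries of the same number. With 3 libraries per group these values cannot decide whether the samples were paired. With the replicate block, the 9 genes gave 5 calls in HG against LG, where SERPIND1 was lost (0.33, FDR 0.111), 6 in HGV against HG, 6 in LGV against LG, where SERPINC1 passed, 4 in HGV against LGV and 0 for the interaction, which had 13 calls over all genes. Over all genes the block gave 3351 of 15452, 8229 of 16188, 6971 of 15944 and 7308 of 16208 calls in these 4 comparisons, against 3813, 7456, 6638 and 6604 without it. PLAT, PLAU and PLAUR had the fewest reads of the 9 genes, and the part of depth in the changed calls was not tested.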
